A study of Mus musculus with 26 samples.

Results

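The 10 genes Rd3l, Neu2, Fmo2, Lpl, Gabra4, Cacng7, Dynlt4, Rapgef5, Gm19522 and Gm32468 were chosen by name on their values in control mice, where the transcripts had a large or very regular 24 h rhythm in the choroid plexus (ChP), and none belongs to the core clock. They were 10 of the 55416 genes in the count table, and all 10 were among the 13697 genes that passed the filter for low counts (a mean of at least 1 CPM, counts scaled to a common library total of 1e+06, in both Ctrl and SCNx). RNA was sequenced from the ChP of the 4th ventricle. The control group (Ctrl, n = 12) held adult male C57Bl6J mice after sham surgery, and the SCNx group (n = 12) held adult male C57Bl6J mice in which the suprachiasmatic nucleus (SCN), the central clock of the brain, had been destroyed on both sides by electrolytic lesion. After a test of the lesion in darkness all 24 mice spent a week under a light-dark cycle (LD12:12), and were then killed in constant darkness, 1 mouse of each group every 4 h from circadian time (CT) 0 to CT44, where CT0 is the time at which lights would have come on. Another group (KO, n = 2) held adult male FoxJ1-ERT2-Cre+/-; Bmal1fl/fl mice fed tamoxifen, 1 killed 7 h and 1 killed 18 h after lights on in a light-dark cycle. In these mice the clock gene Bmal1 (Arntl) is meant to be deleted where the Foxj1 promoter drives Cre, that is in cells with motile cilia, which include those of the ChP epithelium.

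Cells keep circadian time through a loop in which the activators CLOCK and BMAL1 switch on the Per and Cry genes, whose proteins then repress them, and a side loop of REV-ERB and ROR proteins times Arntl itself. These proteins, and the D-box factors DBP, TEF, HLF and NFIL3, also drive many genes that are not part of the loop, so that the hour at which an output gene peaks depends on which of these factors act on it and on other daily signals such as hormones and temperature. The ChP secretes cerebrospinal fluid and is a barrier between blood and fluid, and its own clock runs in the dish. The 10 genes have unrelated functions. Neu2 is a cytosolic sialidase, which removes sialic acid from glycans. Fmo2 is a flavin-containing monooxygenase that oxidises drugs and other nitrogen- and sulfur-containing compounds. Lpl is lipoprotein lipase, which frees fatty acids from circulating triglycerides. Gabra4 is the alpha4 subunit of the GABA-A receptor, and Cacng7 encodes a member of the gamma subunit family of voltage-gated calcium channels that also accompanies AMPA receptors. Rapgef5 activates Rap GTPases, Dynlt4 is a light chain of the dynein motor, and Rd3l is a relative of the retinal protein RD3, which inhibits guanylate cyclase in photoreceptors. Gm32468 is annotated as an intergenic noncoding RNA and Gm19522 as an antisense RNA.

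Sequences at the start sites are shown because genes that move together at one hour are often read for shared clock motifs there. RefSeq windows (mouse build GRCm38.p6, 250 bases before to 50 bases after each start) were at hand for 9 of the 10 genes, in 14 windows, and Dynlt4 is listed in them as Tctex1d4. The windows were searched on both strands for the E-box (CACGTG), the E-prime box (CACGTT), the D-box (TTATGTAA, TTACGTAA, TTATGCAA or TTACACAA), the core of the REV-ERB and ROR site (TAGGTCA), the cyclic AMP element (TGACGTCA), and the glucocorticoid and heat shock elements. The 3 windows with a match are printed up to the start site, 5′ to 3′ on the strand of the gene, with the match in capitals. They are Neu2 at chr1:87583772-87584021 on the plus strand, Gm19522 at chr16:42912071-42912320 on the minus strand and Fmo2 at chr1:162898494-162898743 on the minus strand.
Neu2: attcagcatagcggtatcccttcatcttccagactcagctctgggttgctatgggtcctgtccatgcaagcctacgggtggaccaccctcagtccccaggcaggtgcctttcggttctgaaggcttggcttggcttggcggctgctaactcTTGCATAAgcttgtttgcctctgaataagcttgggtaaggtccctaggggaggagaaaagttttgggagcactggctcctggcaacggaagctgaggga
Gm19522: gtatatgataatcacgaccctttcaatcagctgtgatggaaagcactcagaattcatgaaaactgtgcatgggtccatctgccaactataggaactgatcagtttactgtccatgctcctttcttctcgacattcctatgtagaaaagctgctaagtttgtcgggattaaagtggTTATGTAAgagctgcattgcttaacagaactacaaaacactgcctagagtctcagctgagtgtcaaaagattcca
Fmo2: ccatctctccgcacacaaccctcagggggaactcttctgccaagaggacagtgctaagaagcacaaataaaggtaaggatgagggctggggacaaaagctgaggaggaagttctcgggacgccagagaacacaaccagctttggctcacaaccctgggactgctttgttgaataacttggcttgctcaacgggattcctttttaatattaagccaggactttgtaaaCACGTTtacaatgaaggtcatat
The capitals in Neu2 and Gm19522 are a D-box that begins at -99 and -75 from the start site of the window. In Neu2 it is read on the opposite strand. Those in Fmo2 are an E-prime box at -23. Neu2 and Fmo2 also have windows at other start sites, without a match, and which start the ChP uses was not tested. Lpl was the gene without a window. Over all 32851 windows of the table a D-box was found in 2.48%, an E-prime box in 4.68% and an E-box in 7.15%. No window of the 10 genes held an E-box or any of the other elements searched, a statement about these letters in these windows only.

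Library depth, in units of 1e+06 estimated counts, ranged from 38.8 to 47.3 in Ctrl, from 41.8 to 49.5 in SCNx and from 17.4 to 18.1 in KO. ChP epithelial markers (Ttr, Folr1, Kl, Aqp1 and 6 others) were detected in every library and summed to between 142912 and 166624 CPM in Ctrl, between 105584 and 167000 CPM in SCNx and between 82399 and 86752 CPM in KO. Several libraries held transcripts of other tissues. The sum of 10 hepatocyte markers was 2596 CPM in Ctrl CT16 and 11052 CPM in SCNx CT0, against medians of 1.93 and 3.96 CPM in the groups, and up to 6 of the 10 were at 0 in a library. The sum of 13 neuronal and cerebellar markers was 354 CPM in Ctrl CT4 and 460 CPM in SCNx CT32, against medians of 19.5 and 18.7 CPM. In tissue RNA, fewer cells of a type and less RNA per cell cannot be told apart.

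In Ctrl the 10 genes swung by between 1.96- and 5.98-fold from trough to peak of a fitted 24 h curve. The test for rhythm in Ctrl (edgeR quasi-likelihood test, adjusted p under 0.05) called all 10, and it called 10.7% of all genes tested. They had been selected on this rhythm, so the Ctrl values that follow are a description and carry no test. By the p-value of the rhythm they ranked between 12 and 492 of all genes tested, and by its amplitude between 102 and 623. The amplitude is the height of the fitted peak above the mean of the curve, on the log2 CPM scale, and its median over the 10 genes was 0.93, against 0.11 over all genes tested.

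Around subjective dawn 5 of the genes reached their peak, and their fitted peaks were spread over a few hours. Rapgef5 peaked first, at CT23.0 ± 0.21 (SE, n = 12), with an amplitude of 1.01 ± 0.06 (SE). In Ctrl its level was 19.4 CPM at the lowest (CT36), 47.3 CPM at the median and 83.3 CPM at the highest (CT0). The Ctrl mice of CT0, CT20 and CT24 were high and those of CT8, CT12, CT32 and CT36 were low, and the curve accounted for 97.4% of the variance between the mice.

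Rd3l peaked at CT0.40 ± 0.49 (SE) with an amplitude of 1.29 ± 0.16 (SE), which was the highest of the 10 genes. Its lowest level was 0.616 CPM (CT12), its median 3.51 CPM and its highest 5.18 CPM (CT24). The fitted curve exceeds the measured values at the peak and lies above them at the trough, since Rd3l stayed near the same level from CT20 to CT28 and dropped steeply around CT12 and CT36.

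Cacng7 peaked at CT1.31 ± 0.36 (SE) with an amplitude of 0.65 ± 0.06 (SE), and its level ran from 31.9 CPM (CT12) over a median of 59.1 CPM to 78.1 CPM (CT24). Gabra4 peaked at CT2.52 ± 0.36 (SE) with an amplitude of 0.48 ± 0.05 (SE), and its level ran from 11.3 CPM (CT12) over a median of 15.9 CPM to 23.3 CPM (CT4). Gabra4 had the lowest amplitude of the 10 genes, and its deviations from the curve were also the smallest, with a residual SD of 0.11 on the log2 scale. Its highest Ctrl library, CT4, was the one rich in neuronal transcripts. Without Ctrl CT4 the amplitude was 0.47 ± 0.05 (SE) in Gabra4 and 0.65 ± 0.07 (SE) in Cacng7. Lpl peaked at CT2.90 ± 0.61 (SE) with an amplitude of 0.92 ± 0.15 (SE), and its level ran from 3.39 CPM (CT40) over a median of 7.33 CPM to 18.9 CPM (CT4). The Lpl levels of CT4 and CT28 stood above those of every other Ctrl mouse. Ctrl CT4 also held 11.5 CPM of 4 summed adipocyte markers (Adipoq, Plin1, Fabp4 and Cidec), against a Ctrl median of 0.387 CPM, and Lpl is an adipocyte gene. Ctrl CT28, with 18.1 CPM of Lpl, held 0.328 CPM of these markers, and without Ctrl CT4 the amplitude of Lpl was 0.86 ± 0.16 (SE).

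Dynlt4 was the only one of the 10 genes with a fitted peak in the later part of the subjective day, at CT8.28 ± 0.48 (SE), with an amplitude of 0.92 ± 0.12 (SE). Its level ran from 2.39 CPM (CT44) over a median of 6.48 CPM to 10.95 CPM (CT8). The 6 mice of CT4, CT8, CT12, CT28, CT32 and CT36 lay above the other 6.

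Early in the subjective night Neu2, Gm32468 and Fmo2 peaked. Neu2 peaked at CT13.2 ± 0.28 (SE) with an amplitude of 1.20 ± 0.09 (SE), and its level ran from 0.975 CPM (CT0) over a median of 2.55 CPM to 6.55 CPM (CT12). Gm32468 peaked at CT13.6 ± 0.35 (SE) with an amplitude of 1.19 ± 0.11 (SE), and its level ran from 6.27 CPM (CT4) over a median of 14.5 CPM to 38.1 CPM (CT12). The highest levels of Neu2 were those of CT12 and CT36 and the lowest those of CT0 and CT24, and Gm32468 was likewise highest at CT12 and CT36.

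Fmo2 peaked at CT14.7 ± 0.77 (SE) with an amplitude of 0.93 ± 0.19 (SE), and its level ran from 1.73 CPM (CT4) over a median of 3.85 CPM to 8.72 CPM (CT16). It was the least regular of the 10 genes, with 73.1% of the variance on the curve. Its highest Ctrl library was the one rich in hepatocyte transcripts, and its lowest the one rich in neuronal transcripts. Without Ctrl CT16 the amplitude was 0.84 ± 0.20 (SE), and without Ctrl CT4 it was 0.90 ± 0.22 (SE).

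Gm19522 peaked later in the subjective night, at CT17.8 ± 0.31 (SE), with an amplitude of 0.93 ± 0.07 (SE). Its level ran from 4.16 CPM (CT4) over a median of 8.71 CPM to 16.6 CPM (CT40), and the 4 mice of CT16, CT20, CT40 and CT44 were well above the other 8. The gene lies antisense to Zbtb20, a transcriptional repressor with a mean of 555 CPM in Ctrl, and whether the counting used strand is not given in the sources used here, so reads of the pair may not be fully separated. Zbtb20 itself had an amplitude of 0.15 and a fitted peak at CT3.50 in Ctrl.

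**Figure D1:**
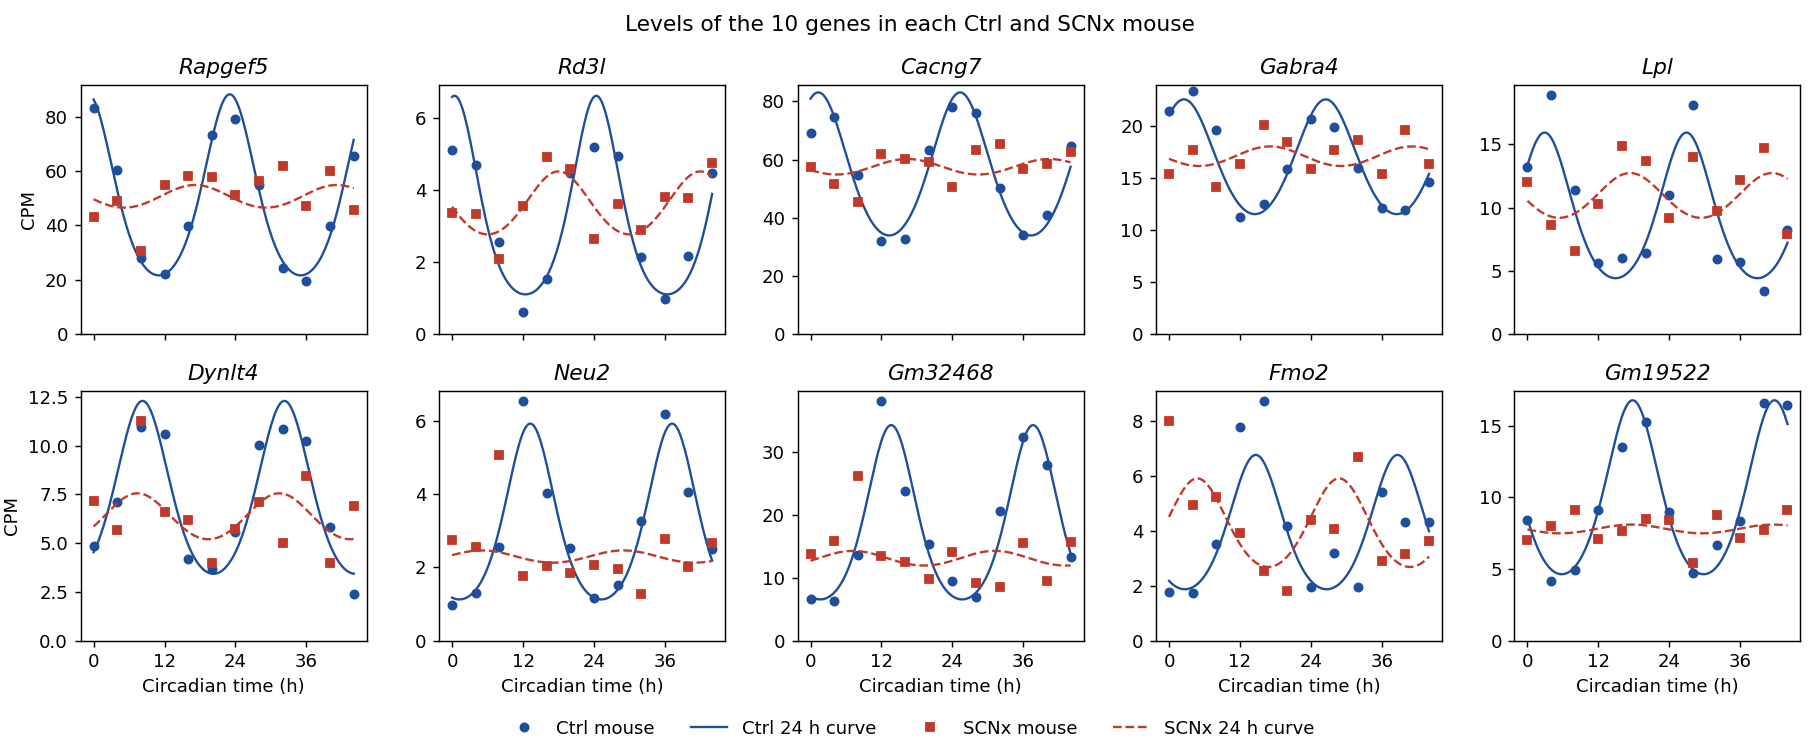
Levels of the 10 genes (CPM, from 0) against circadian time (h), 1 point per mouse, with blue circles for the 12 Ctrl mice and red squares for the 12 SCNx mice, and the fitted 24 h curve of each group. The panels run in the order of the Ctrl peaks, from Rapgef5 at CT23.0 to Gm19522 at CT17.8, and in SCNx the curves are flatter and Fmo2 peaks at CT4.8.

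The first question for the SCNx mice was whether any of the 10 genes still followed the clock time at which the mice were killed. None of the 10 had a 24 h rhythm in SCNx past an adjusted p of 0.05, where 0% of all genes were called (edgeR quasi-likelihood test with Benjamini-Hochberg adjustment over the 13697 genes, smallest adjusted p 0.137). At an unadjusted p under 0.05, 1 of the 10 passed, against 14.8% of all genes. Neither limma-trend nor DESeq2 called any of the 10, although DESeq2 called 432 genes and limma-trend none. Amplitudes in SCNx ranged from 0.06 to 0.57 with a median of 0.12, against 0.09 over all genes tested. On simulated data the test found 94.5% of 200 genes with an added amplitude of 1 on the log2 scale, a size near that of Rapgef5 in Ctrl. The Ctrl amplitudes of the 10 genes went down to 0.48, and the share found at amplitudes below 1 was not tested. The residual SD in SCNx had a median of 0.34 in the 10 genes, against 0.16 over all genes tested. Whether rhythms in genes with this larger spread would be found as often was not tested.

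Fmo2 was the gene with the unadjusted p under 0.05 (p = 0.0192, adjusted p = 0.237, edgeR). Its SCNx levels ran from 1.79 CPM (CT20) over a median of 4.00 CPM to 7.98 CPM (CT0), and the fitted amplitude was 0.57 ± 0.19 (SE) with the peak at CT4.8, nearly opposite to the Ctrl peak. The highest SCNx mice were CT0, the library with 11052 CPM of hepatocyte markers, and CT32, the library with 460 CPM of neuronal markers. Without SCNx CT0 the amplitude was 0.54 ± 0.15 (SE) and without SCNx CT32 it was 0.52 ± 0.20 (SE).

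Rd3l had an amplitude of 0.35 ± 0.11 (SE) in SCNx, against 1.29 in Ctrl, with a fitted peak at CT18.0 (adjusted p = 0.346, edgeR). Its SCNx levels ran from 2.10 CPM (CT8) over a median of 3.58 CPM to 4.90 CPM (CT16). The other 8 genes had SCNx amplitudes between 0.06 in Gm19522 and 0.27 in Dynlt4, and several of these low values moved with single mice. Without SCNx CT32, the library with neuronal transcripts, the amplitude went from 0.11 to 0.28 in Neu2, from 0.13 to 0.29 in Gm32468, from 0.06 to 0.10 in Gm19522, from 0.12 to 0.19 in Rapgef5 and from 0.07 to 0.10 in Cacng7, and it was 0.40 in Dynlt4. Without SCNx CT8 it was 0.18 in Neu2, 0.11 in Gm19522, 0.14 in Dynlt4 and 0.07 in Gm32468. Gm19522, with 5.44 CPM at the lowest (CT28), a median of 7.86 CPM and 9.12 CPM at the highest (CT8), had the lowest fitted amplitude with all 12 mice, but not the smallest spread between them.

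Nearly all SCNx values lay within the range of the Ctrl mice. That range is wide in genes chosen for a large Ctrl rhythm, and the count was not made over all genes, so it is a description. For 9 of the 10 genes all 12 SCNx values lay between the lowest and the highest Ctrl value, and for Dynlt4 11 did, the exception being SCNx CT8 at 11.3 CPM. Rapgef5 ran from 30.7 CPM (CT8) over 53.1 CPM to 61.9 CPM (CT32), Cacng7 from 45.4 CPM (CT8) over 58.8 CPM to 65.4 CPM (CT32), and Gabra4 from 14.2 CPM (CT8) over 17.03 CPM to 20.1 CPM (CT16). For these 3 dawn genes the SCNx mice filled the middle of the Ctrl range. The SD of the SCNx values on the log2 scale was nevertheless not small for all of the genes. It ranged from 0.15 in Cacng7 to 0.59 in Fmo2 with a median of 0.37, against a median of 0.16 over all genes tested.

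**Figure D2:**
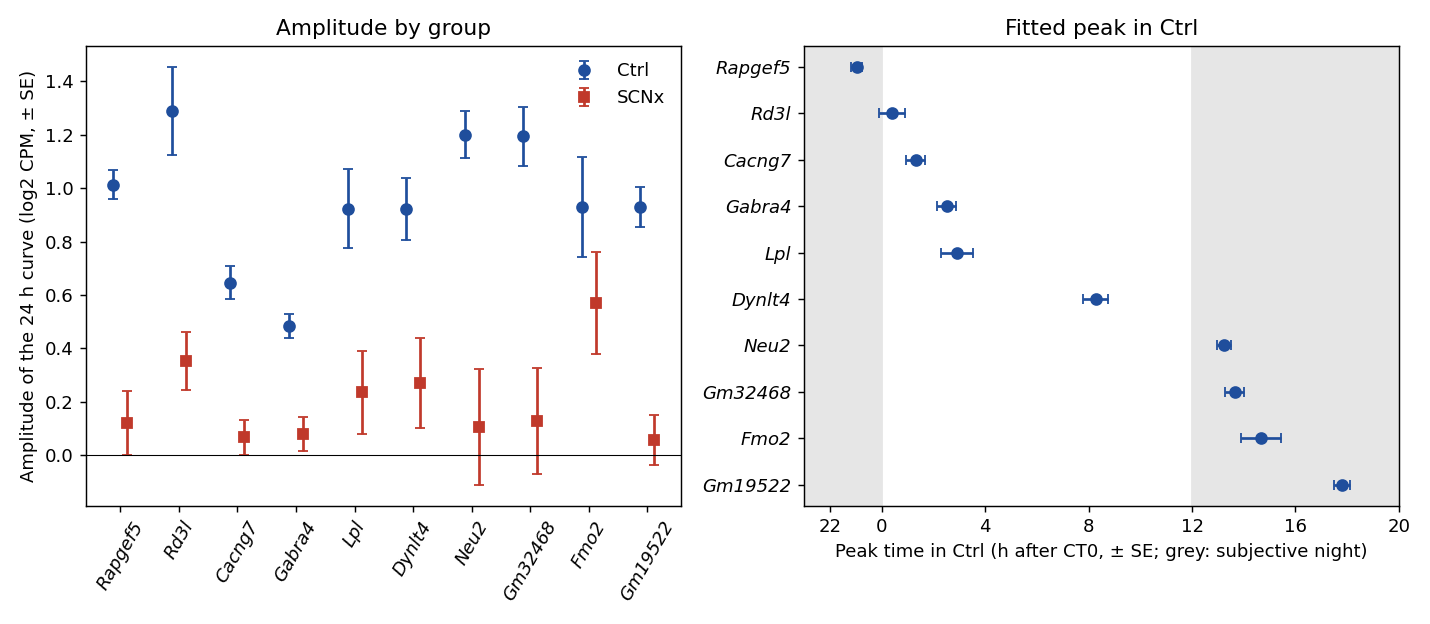
Left, amplitude of the fitted 24 h curve (log2 CPM, ± SE) of each gene in Ctrl (blue circles) and SCNx (red squares), n = 12 mice per group; right, fitted peak time in Ctrl (h, ± SE), with the subjective night in grey. Every Ctrl point is above the SCNx point of its gene, and Fmo2 at 0.57 is the highest SCNx point.

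In mean level no difference between SCNx and Ctrl was detected for the 10 genes. None of the 10 genes differed between SCNx and Ctrl at an adjusted p under 0.05, where 0% of all genes were called, and none passed at an unadjusted p under 0.05 either, against 9.37% of all genes (edgeR, adjusted p between 0.634 and 0.964). By limma-trend 0 genes and by DESeq2 7 genes were called, none of them among the 10. The log2 difference, SCNx minus Ctrl, ranged from -0.39 to 0.23. The model of this test held a mean per group alone. The 24 h swing of Ctrl, for which the genes were chosen, therefore counted as spread and widened the SE. A low count among the 10 is thus partly built in, and cannot be read as equal levels.

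Among the enzymes, the mean of Neu2 was 3.05 ± 1.87 CPM (SD, n = 12) in Ctrl against 2.40 ± 0.96 CPM for SCNx, a log2 difference of -0.35 ± 0.29 (SE). The mean of Lpl was 9.50 ± 5.08 CPM (SD) in Ctrl against 11.1 ± 2.82 CPM for SCNx, a log2 difference of 0.23 ± 0.23 (SE), and Fmo2 had a log2 difference of 0.07 ± 0.28 (SE). The membrane proteins Gabra4 and Cacng7 each had a log2 difference of 0.05, with an SE of 0.11 and 0.14. Both noncoding RNAs had lower means in SCNx, with a log2 difference of -0.39 ± 0.28 (SE) for Gm32468 and -0.32 ± 0.20 (SE) for Gm19522. Each of the 10 differences was smaller than 2 of its standard errors, which include the 24 h swing of Ctrl. Those of Fmo2, Cacng7 and Rapgef5 changed sign when single libraries were left out. With means taken from the 24 h curves, a model that takes this swing out of the spread, 4 of the 10 passed an unadjusted p of 0.05. This compares with 11.1% of all genes, and none of the 10 passed after adjustment.

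Since every mouse of the SCNx group was killed at a different time, a clock that still ran, but at its own phase in each mouse, would be seen as spread between the mice. For this reason the state of the clock genes was estimated in each mouse. The log2 levels of 17 clock genes were fitted with 2 coordinates that use the amplitude and phase of each gene in Ctrl, which together give a phase and a length, where a length of 1 stands for the full Ctrl amplitude. In Ctrl the length was between 0.63 and 1.24, and the phase was within 0.94 h of the time of death. These Ctrl values are largely built in, since the amplitudes and phases were fitted to the same Ctrl mice. In SCNx the length was between 0.042 and 0.757 with a median of 0.290, and the phase lay between -10.2 h and 10.4 h from the time of death. A phase is poorly defined where the length is small. The 2 extremes were SCNx CT12 (length 0.055, -10.2 h) and SCNx CT0 (length 0.113, 10.4 h). The longest was SCNx CT8, with a length of 0.757 at a phase of 11.5 h, followed by SCNx CT16 with 0.536 at 1.55 h and SCNx CT20 with 0.358 at 23.6 h.

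The 10 genes were then compared with the clock gene state of the same 12 SCNx mice. No member of the 10 passed an adjusted p of 0.05 (edgeR, adjusted p between 0.237 and 0.454), where 6 genes, or 0.0438% of all genes, were called. At an unadjusted p under 0.05, 8 of the 10 passed, against 13.6% of all genes and against 20.3% of the 1432 other genes called rhythmic in Ctrl, with clock genes left out. These sets differ in the size of the rhythm, with a median Ctrl amplitude of 0.93 in the 10 genes, 0.25 in the other rhythmic genes and 0.11 in all genes. Fmo2 (p = 0.0546, edgeR, adjusted p = 0.376) and Gm19522 (p = 0.117, edgeR, adjusted p = 0.454) did not pass. On simulated data the test found 39% of 200 genes with an effect of 1 on the log2 scale per unit of length. The SCNx lengths had a median of 0.290 and a maximum of 0.757, so the deviations added to single mice were smaller than 1. Most effects of this size would have been missed after adjustment.

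The result depended on the test and on single mice. With DESeq2, which called 4.23% of all genes, 6 of the 10 passed an adjusted p of 0.05, namely Dynlt4, Rapgef5, Lpl, Rd3l, Gm32468 and Neu2. Without SCNx CT28, edgeR called 10.8% of all genes and 6 of the 10, which were again Gm32468, Rapgef5, Neu2, Dynlt4, Rd3l and Lpl. Without SCNx CT8, the mouse with the longest clock gene state, 5 of the 10 had an unadjusted p under 0.05 against 10.8% of all genes, and edgeR called none after adjustment. The 5 were Fmo2, Gm19522, Rd3l, Lpl and Dynlt4, whereas Rapgef5, Gabra4, Cacng7, Neu2 and Gm32468 had an unadjusted p between 0.126 and 0.510. The share of all genes also moved with single mice. Without SCNx CT32, the library with neuronal transcripts, 587 of 13529 genes had an unadjusted p under 0.05, against 1865 of 13697 with all mice. Of the 10 genes 8 did so without it, and edgeR called none after adjustment. With the 24 h terms of the time of death added to the model, 4 of the 10 passed after adjustment, against 10.8% of all genes.

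In direction the genes mostly moved as their Ctrl rhythm would predict from the state of the mouse. Of the 120 pairs of a gene and a SCNx mouse, 92 had the predicted sign, and without SCNx CT8 83 of 110 did. Clock genes and the 10 genes were measured in the same libraries, and the pairs are not independent, so the count is a description. It was not made for other genes and cannot be read as particular to the 10. SCNx CT8, at the phase of Ctrl mice near dusk (11.5 h), was the lowest SCNx mouse in Rapgef5, Rd3l, Cacng7, Gabra4 and Lpl. The fitted Ctrl troughs of these genes ran from CT11.0 in Rapgef5 to CT14.9 in Lpl. SCNx CT8 was the highest SCNx mouse in Neu2 (5.09 CPM), Gm32468 (26.1 CPM), Dynlt4 (11.3 CPM) and Gm19522 (9.12 CPM). For Gm19522 this was against the prediction, with a measured deviation of 0.23 and a predicted one of -0.05 on the log2 scale, and the other 9 genes had the predicted sign in this mouse. The predicted sign was found in 10 of the 10 genes in SCNx CT16 and SCNx CT20, in 9 in CT8, CT28 and CT40, in 8 in CT0, CT4 and CT24, in 6 in CT12 and CT36, in 5 in CT32 and in 4 in CT44. CT32, with 5, had a length of 0.308, not far from the 0.358 of CT20.

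The size of the response can be read from a slope, where 1 means that a gene moved with the clock gene state as much as in Ctrl. The slope was above 0 for all 10 genes, for 1232 of the 1432 other genes called rhythmic in Ctrl and for 8610 of all 13697 genes tested, and its median was 0.74, 0.86 and 0.68 in these sets. Among the 10 genes it ranged from 0.51 ± 0.17 (SE) in Cacng7 to 1.93 ± 0.38 (SE) in Dynlt4. Without SCNx CT8 the slope of Dynlt4 was 2.03 ± 0.63 (SE), that of Lpl 1.08 ± 0.34 (SE) and that of Rd3l 0.70 ± 0.19 (SE). The slope of Neu2 went from 0.70 ± 0.33 (SE) to 0.12 ± 0.37 (SE) without that mouse and the slope of Gm32468 from 0.75 ± 0.30 (SE) to 0.36 ± 0.36 (SE), and those of Cacng7 (to 0.30 ± 0.22, SE) and Rapgef5 (from 0.72 ± 0.16 to 0.42 ± 0.22, SE) were also lower without it. The phase of best fit in SCNx minus the Ctrl peak ran from -5.01 h to 0.77 h over the 10 genes, with a median of -1.50 h. This difference was -5.01 h for Neu2, -4.51 h for Gm32468 and -4.26 h for Gabra4, while it was -0.33 h for Dynlt4.

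**Figure D3:**
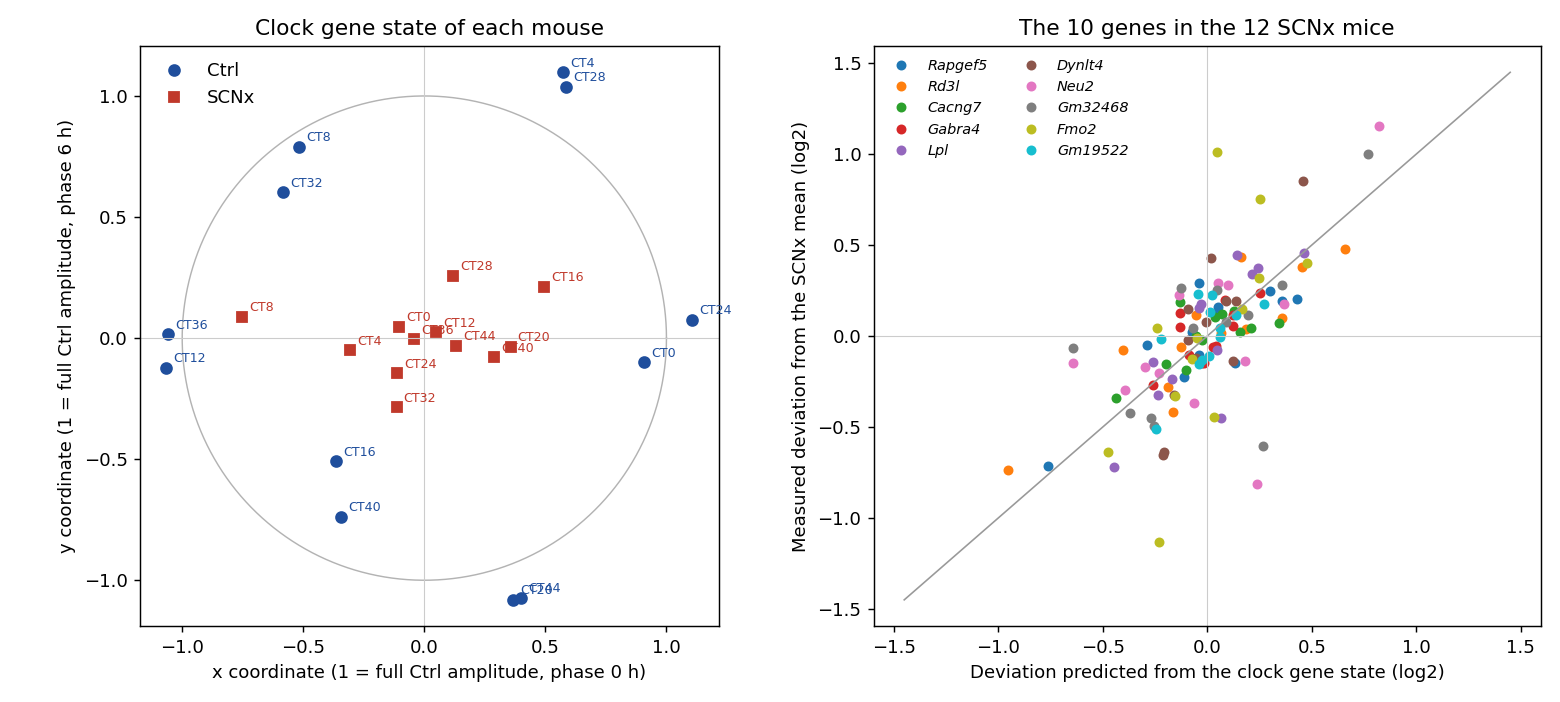
Left, clock gene state of each mouse from 17 clock genes, as coordinates in units of the Ctrl amplitude (circle: length 1), with blue circles for Ctrl, red squares for SCNx and the time of death beside each point; right, measured deviation of the 10 genes from their SCNx mean (log2) against the deviation predicted from that state, 1 point per gene and SCNx mouse, with the line of equality. Ctrl mice, to which the coordinates were fitted, lie around the circle in the order of their time of death. SCNx mice lie nearer the centre, and 92 of the 120 points on the right share the sign of the prediction.

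The 2 days of sampling gave each time of day 2 mice per group. None of the 10 genes differed between the second and the first day in Ctrl or in SCNx at an adjusted p under 0.05, where 0% of all genes were called in either group, nor at an unadjusted p under 0.05, against 4.28% of all genes in Ctrl and 18.6% in SCNx (edgeR). The limma-trend test called no gene in either group, and DESeq2 called 0 in Ctrl and 335 in SCNx. In Ctrl the typical difference between 2 mice killed 24 h apart, as a median over the 6 times of day, was between 0.11 (Gabra4) and 0.69 (Fmo2) on the log2 scale. In SCNx it was between 0.06 (Gabra4) and 0.53 (Gm32468).

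For each of the 10 genes the 2 genes outside the 10 with the most similar Ctrl profile were taken, by Pearson's r of log2 CPM over the 12 Ctrl libraries, and the same r is given over the 12 SCNx libraries. The libraries are shared between the genes of a pair, and r has no test. Arntl, the gene of BMAL1, was the second neighbour of Rapgef5, with r = 0.99 in Ctrl and r = 0.89 in SCNx, and it peaked at CT22.8 in Ctrl. The first was Leo1, a subunit of the PAF1 transcription elongation complex (r = 0.99 in Ctrl and 0.66 in SCNx). Cry1, a repressor of the clock loop, was the second neighbour of Gm19522 (r = 0.95 and 0.78), after Herpud1, which acts in the disposal of misfolded proteins of the endoplasmic reticulum (r = 0.96 and 0.15).

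Neu2 and Gm32468 shared their first neighbour, Wee1, a kinase that holds back entry into mitosis and a known clock output, with r = 0.97 and r = 0.98 in Ctrl and r = 0.62 and r = 0.67 in SCNx. The second neighbour of Gm32468 was Snw1, a splicing and transcription cofactor, with r = 0.96 in Ctrl and r = 0.95 in SCNx, and that of Neu2 was Lonrf1 (r = 0.96 and 0.60). Dynlt4 ran closest to Cirbp, an RNA-binding protein induced by cold (r = 0.97 and 0.62), and to Pdk1, a kinase that inhibits pyruvate dehydrogenase (r = 0.97 and 0.64). Cirbp peaked at CT7.98 with an amplitude of 0.83.

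The neighbours of Fmo2 were Cdh19, a cadherin (r = 0.96 and 0.74), and Pla1a, a phospholipase (r = 0.93 and 0.77), and those of Rd3l were Dact1, a regulator of Wnt signalling (r = 0.96 and 0.75), and Ipo9, a nuclear import receptor (r = 0.95 and 0.39). Gabra4 was nearest to Nt5e, which makes adenosine outside the cell (r = 0.95 and 0.17), and Slc20a2, a phosphate transporter (r = 0.94 and 0.38). The neighbours of Cacng7 were Fam189a2 (r = 0.95 and 0.24) and Wdtc1 (r = 0.94 and 0.36). Those of Lpl, Armc8 (r = 0.92 and -0.01) and Mpzl1 (r = 0.91 and 0.09), had values near 0 in SCNx. Among the 10 genes themselves, 40 of the 45 pairs had an r of the same sign in Ctrl and in SCNx, a count not made for other genes. Neu2 and Gm32468, for example, had r = 0.97 in Ctrl and 0.89 in SCNx, and Rapgef5 and Neu2 had r = -0.83 and -0.95.

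Relatives of the 10 genes were examined as lists of 93 genes, of which 60 passed the filter for low counts. Of these 60, 5 had a rhythm in Ctrl, against 10.7% of all genes (edgeR, adjusted p under 0.05), none had one in SCNx and none differed in mean level. Their median Ctrl amplitude was 0.18, against 0.11 over all genes tested. Among genes that handle lipoprotein lipase or its substrates, 2 of 14 were rhythmic in Ctrl. Sel1l, which helps newly made lipase mature, peaked at CT19.1 with an amplitude of 0.29 ± 0.07 (SE, adjusted p = 0.0239, edgeR). Apoa5, an apolipoprotein made in liver, had an amplitude of 2.55 ± 0.98 (SE, adjusted p = 0.00709, edgeR) and a fitted peak at CT16.2, the time of the Ctrl library rich in hepatocyte transcripts. Its part in that result was not tested.

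Of the 11 dynein light chains tested, Dynll1 peaked at CT20.0 with an amplitude of 0.24 ± 0.04 (SE, adjusted p = 0.000671, edgeR) and Dynlt2b at CT8.57 with an amplitude of 0.25 ± 0.06 (SE, adjusted p = 0.0369, edgeR). Dynlt2b, a light chain of the motor that works inside cilia, thus peaked within an hour of Dynlt4 at CT8.28. Of the 17 Rap regulators, Sipa1l3, which inactivates Rap, peaked at CT1.69 with an amplitude of 0.25 ± 0.04 (SE, adjusted p = 0.00304, edgeR).

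In the remaining 5 lists no other member was rhythmic past an adjusted p of 0.05. Gabrb1, the beta1 subunit and the most abundant by CPM of the 6 GABA-A receptor subunits tested, had an amplitude of 0.52 ± 0.06 (SE) with a fitted peak at CT4.29 in Ctrl (adjusted p = 0.103, edgeR). Gabrb1 and Gabra4 overlap on opposite strands in the gene annotation used here, and their Ctrl levels had an r of 0.88, so without strand information their reads may not be fully separated. The levels of Rd3 (amplitude 0.19, adjusted p = 0.293), Neu1 (0.06, adjusted p = 0.492), Fmo1 (0.28, adjusted p = 0.605) and Gria1 (0.36, adjusted p = 0.870) in Ctrl stand for the other lists (edgeR). The GABA-A and AMPA receptor lists are also expressed in neurons, whose markers were high in Ctrl CT4 and SCNx CT32.

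The KO mice address whether the genes depend on the clock of the ChP itself. They differed from the other mice in the library kit, in sampling by laser microdissection from frozen brain, in light regime and in the institute. They were also older, had no brain surgery, and their RNA had a lower average integrity in the paper. There was 1 mouse per time, so genotype cannot be told apart from these differences and no test was made. Arntl had 184 counts (10.6 CPM) at 7 h and 169 counts (9.36 CPM) at 18 h, within the range of Ctrl, and this count covers the whole gene and not the deleted part alone, so it does not check the deletion. Summed neuronal markers were 273 and 430 CPM and summed oligodendrocyte markers 307 and 446 CPM in KO, above the Ctrl medians of 19.5 and 74.2 CPM. Summed ChP epithelial markers were 86752 and 82399 CPM in KO, below the Ctrl minimum of 142912 CPM.

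Dynlt4 and Gm32468 were below every Ctrl mouse in both KO mice. Dynlt4 was at 1.32 CPM at 7 h and 1.22 CPM at 18 h, against a Ctrl minimum of 2.39 CPM, and Gm32468 at 5.91 and 5.81 CPM, against a Ctrl minimum of 6.27 CPM. KO counts were scaled by library total alone, but those of Ctrl and SCNx also by a factor per library, between 0.95 and 1.08. A gap as small as that of Gm32468 cannot be told from this difference in scaling. Cacng7 was at 24.2 CPM at 7 h, below the Ctrl minimum of 31.9 CPM, and at 36.2 CPM at 18 h. The other 7 genes lay within the Ctrl range in both KO mice.

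The 95% counting interval of the difference between 18 h and 7 h in KO held 0 for 6 of the 10 genes. This count was not made over all genes, so it is not a result about the 10. Low counts also widen the interval, as in Dynlt4 with 23 counts at 7 h and 22 at 18 h. The genes were chosen on their Ctrl rhythm, so the Ctrl and KO differences are set side by side as a description. Gm19522 rose by 1.81 ± 0.15 (SE) on the log2 scale between CT7 and CT18 on the Ctrl curve, and its levels in KO were 7.40 and 7.70 CPM, a log2 difference of 0.06 (95% interval -0.30 to 0.41). Dynlt4 had a difference of -1.63 ± 0.23 (SE) in Ctrl and of -0.12 (-1.03 to 0.79) in KO. Lpl had a difference of -1.08 ± 0.29 (SE) in Ctrl and of -0.09 (-0.42 to 0.24) in KO, with 8.95 and 8.42 CPM.

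Rapgef5 and Cacng7 ran against the Ctrl direction. Rapgef5 had a difference of 0.75 ± 0.11 (SE) in Ctrl and of -0.28 (-0.44 to -0.13) in KO, and Cacng7 of -0.27 ± 0.12 (SE) in Ctrl and of 0.58 (0.40 to 0.76) in KO. The 2 KO libraries also differed in brain transcripts. Summed neuronal markers were 273 CPM at 7 h and 430 CPM at 18 h, and summed astrocyte markers 743 and 866 CPM. The part of such tissue in the KO differences was not tested. Fmo2, with 4.13 and 5.87 CPM, had a difference of 0.51 (0.06 to 0.96) in KO and of 0.99 ± 0.37 (SE) in Ctrl, and Gabra4, with 22.6 and 17.2 CPM, of -0.39 (-0.61 to -0.17) and -0.48 ± 0.09 (SE). For Rd3l and Neu2 the 2 times fall on flanks where the Ctrl curve itself differed by 0.07 and 0.45, and the KO intervals held these values. The intervals cover counting error only and not the variation between mice.

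**Figure D4:**
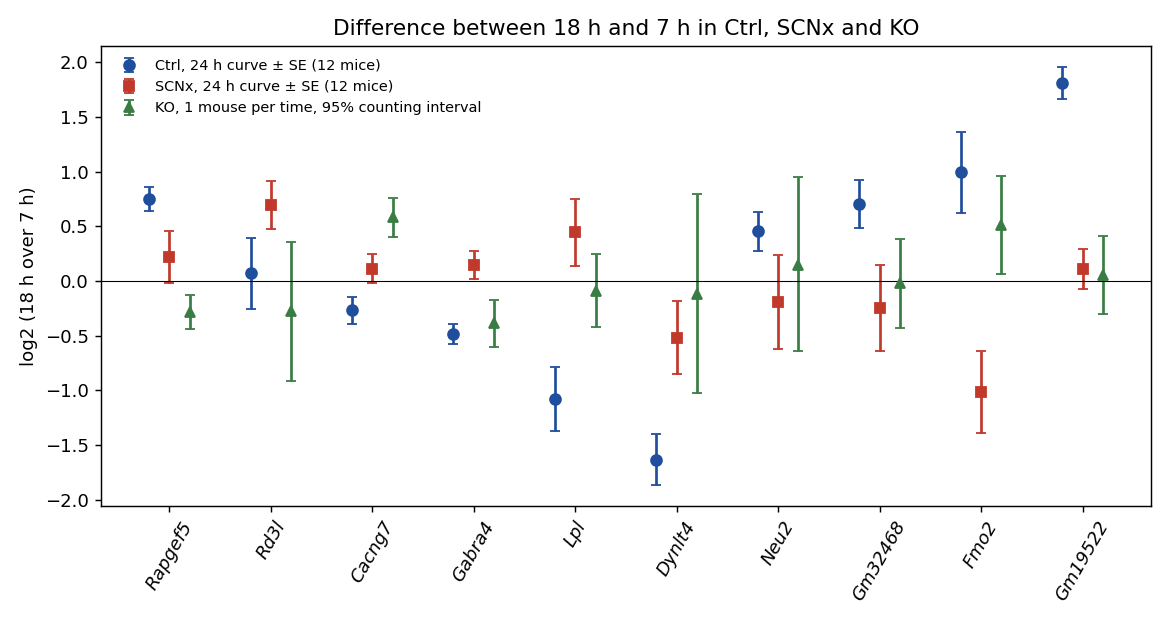
Difference in level between 18 h and 7 h (log2) for the 10 genes, from the fitted curves of Ctrl (blue circles, ± SE) and SCNx (red squares, ± SE), n = 12 mice each, and from the 2 KO mice (green triangles, 95% counting interval). Gm19522 and Dynlt4 have the largest Ctrl differences, 1.81 and -1.63, and lie near 0 in KO.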

How the data were processed

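The authors processed the reads with the nf-core/rnaseq workflow against mouse GRCm39 with Ensembl 104 annotation and deposited Salmon estimated counts per gene; the submitters' notes name STAR, Salmon 1.9.0, SAMtools 1.16.1, cutadapt 3.4 and StringTie 2.2.1. Whether counting used strand is not given in the sources used here. Ctrl and SCNx were in one table and KO in another.

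Deposited estimated counts were rounded to whole numbers. Genes with a mean of at least 1 CPM in each of Ctrl and SCNx were kept, and the counts of Ctrl and SCNx were scaled by TMM. KO counts were scaled by library total alone. edgeR 4.0.16 (R 4.3.3) fitted quasi-likelihood models over the 13697 genes. The models of the rhythm and of the days held a cosine and sine of 24 h per group. That of the mean level held a mean per group alone, and that of the clock gene state a mean and the 2 coordinates. Adjusted p-values are Benjamini-Hochberg over these genes. Amplitudes and peaks came from least squares on log2 CPM with a prior count of 1. The tests were the rhythm in SCNx, the mean level, the clock gene state of the SCNx mice (2 degrees of freedom) and the second against the first day. Each mouse is 1 library, no pair of libraries was identical, and the number of libraries limits the precision of every value. KO intervals are exact 95% intervals of a ratio of counts without molecular identifiers. The tests were checked on simulated data. Alternatives were limma 3.58.1, DESeq2 1.42.0, other scalings and filters, and libraries left out.

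The members and all gene lists were chosen with earlier results of these data known. Named by rule were the 10 genes, for each the 2 nearest tested genes outside the 10 in Ctrl, and, per list of relatives, those rhythmic in Ctrl or, with none, the most abundant. The authors' genome build was not used for coordinates, since the annotation used here is of GRCm38, where all 10 gene identifiers matched.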

Additional observations from a re-analysis of the deposited data

How the results depend on the processing

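Under every alternative run, none of the 10 genes gained an adjusted p under 0.05 for a 24 h rhythm in SCNx, for a difference in mean level or for a difference between the days, also when single libraries were left out (0 to 0). For the clock gene state of the SCNx mice, 0 of the 10 were called by edgeR, 6 by DESeq2, 4 with 24 h terms of the time of death added, and 0 to 6 when single libraries were left out, the 6 without SCNx CT28. The cause was not tested. At an unadjusted p under 0.05 between 5 and 9 passed. The mean level changed its sign in 3 genes whose difference was near 0. For Fmo2 (0.07) it was -0.085 without Ctrl CT4 and SCNx CT32 together, and -0.0029, -0.0056, -0.050 and -0.012 without Ctrl CT0, Ctrl CT4, SCNx CT0 and SCNx CT32, within a range of -0.05 to 0.23 over all single libraries left out. For Cacng7 (0.05) it was -0.0051 without Ctrl CT16 and SCNx CT0 together, and -0.0084, -0.0052 and -0.0038 without Ctrl CT12, CT16 and CT36 (range -0.0084 to 0.10). For Rapgef5 (0.06) it was -0.0098, -0.0018 and -0.016 without Ctrl CT12, CT32 and CT36 (range -0.02 to 0.16). With means taken from the 24 h curve, 4 of the 10 had an unadjusted p under 0.05 for level, against 11.1% of all genes, and none after adjustment. No paired analysis by replicate number was possible because the labels number no replicates; with circadian time as a block, 0 of the 10 differed in level. Each time of day has 2 mice per group, which limits what can be said of waveform.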
